A study of Bos taurus with 10 samples.

Results

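The genes described here are the cyclins, the cyclin-dependent kinases (CDKs) and their inhibitors, the factors that license and fire replication origins, the E2F and retinoblastoma families, and a set of mitotic genes. They were chosen by gene symbol, and 87 of the 12674 genes in the table carried such a symbol. They were sorted by role into 46 genes of proliferation, 11 genes of arrest and 30 others, the last being CDKs of transcription and of non-dividing cells, stress kinases and genes that only share a name. The symbols CCNA1, CDC25C, E2F2, CDKN2A, CDKN2B, E2F7, E2F8, CDK11A, CDK15, PLK5, CDK5R2 and CDC20B fall under the same lists and were not analysed here.

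The samples were intramuscular fat, which lies between the fibres and bundles of skeletal muscle, and subcutaneous fat, which lies under the skin. Both depots were taken from the same 5 adult Angus cross heifers (female cattle, Bos taurus), with 5 RNA-seq libraries per depot, and the depot is the only difference the labels give between the groups. The labels used here name neither the muscle, the site under the skin, the age in months nor the diet. The series sets out to explore why cattle lay down intramuscular fat later and more slowly than subcutaneous fat, and for the cell cycle genes this gives the question whether genes of division or of arrest differ between the depots.

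A cell enters the division cycle when D-type cyclins with CDK4 or CDK6, followed by E-type cyclins with CDK2, phosphorylate the retinoblastoma protein and its relatives and release the E2F factors that switch on genes of DNA replication. Before replication, the origin recognition complex and CDC6 load the MCM helicase on DNA, which is called licensing, and cyclin A and cyclin B with CDK2 and CDK1 then carry the cell through S phase and mitosis. Mature adipocytes have left the cycle, and in fat tissue dividing cells are found among progenitors, endothelial cells and immune cells.

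Few of these genes differed between the depots beyond the spread of the libraries. CCNA2, the A-type cyclin of S phase and G2, was 3.00-fold higher in intramuscular fat, E2F6, a repressor E2F, was 1.68-fold higher, and CDK8, a kinase of the Mediator complex of transcription, was 1.80-fold higher. CDK18, a kinase of the PCTAIRE family that is not known as a motor of division, was 1.61-fold lower. These 4 were the called genes among 85 tested, where a called gene is one with a Benjamini-Hochberg adjusted p under 0.05, over all genes, in the quasi-likelihood test of edgeR. That is 4.71% of the tested genes of the set, while 12.2% of all 12521 genes tested were called. By direction, 3 were higher and 1 lower, beside 6.73% of all genes higher and 5.47% lower. The proliferation genes gave 1 call among 45 tested, which was CCNA2, and the arrest genes gave 1 among 11, which was E2F6. CDC6 and CDKN3 had too few counts to be tested. None of the 4 was called when intramuscular replicate 1 or 3 alone was left out, where 7.86% and 6.02% of all genes were called. E2F6 was also not called with the replicate number as a block (adjusted p = 0.0631) or in limma voom (adjusted p = 0.0501). The reported test does not pair the libraries. With the replicate block, which pairs libraries of the same number, edgeR called 4 genes of the set higher and 4 lower (9.41%, beside 15.1% of all genes).

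The median log2 fold change (intramuscular over subcutaneous) was -0.05 over the tested genes of the set and -0.04 over all genes. It was -0.07 over the proliferation genes and 0.13 over the arrest genes. In 44 of the 85 (51.8%) the 95% interval of the difference lay within 2-fold in either direction, beside 51.4% of all genes. For the others the libraries leave larger differences possible, and 21 of the tested genes had a mean under 5 CPM (counts per 1000000 of the TMM-scaled library size). At an unadjusted p under 0.05 stood 22 genes of the set (25.9%), beside 30.7% of all genes. All 5 intramuscular libraries lay above all 5 subcutaneous ones for 7 genes of the set, CCNA2, CCND1, CDK19, E2F6, ORC4, PLK1 and RBL2, and none lay wholly below, while 7.85% of all genes lay wholly above and 5.04% wholly below.

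**Figure D1:**
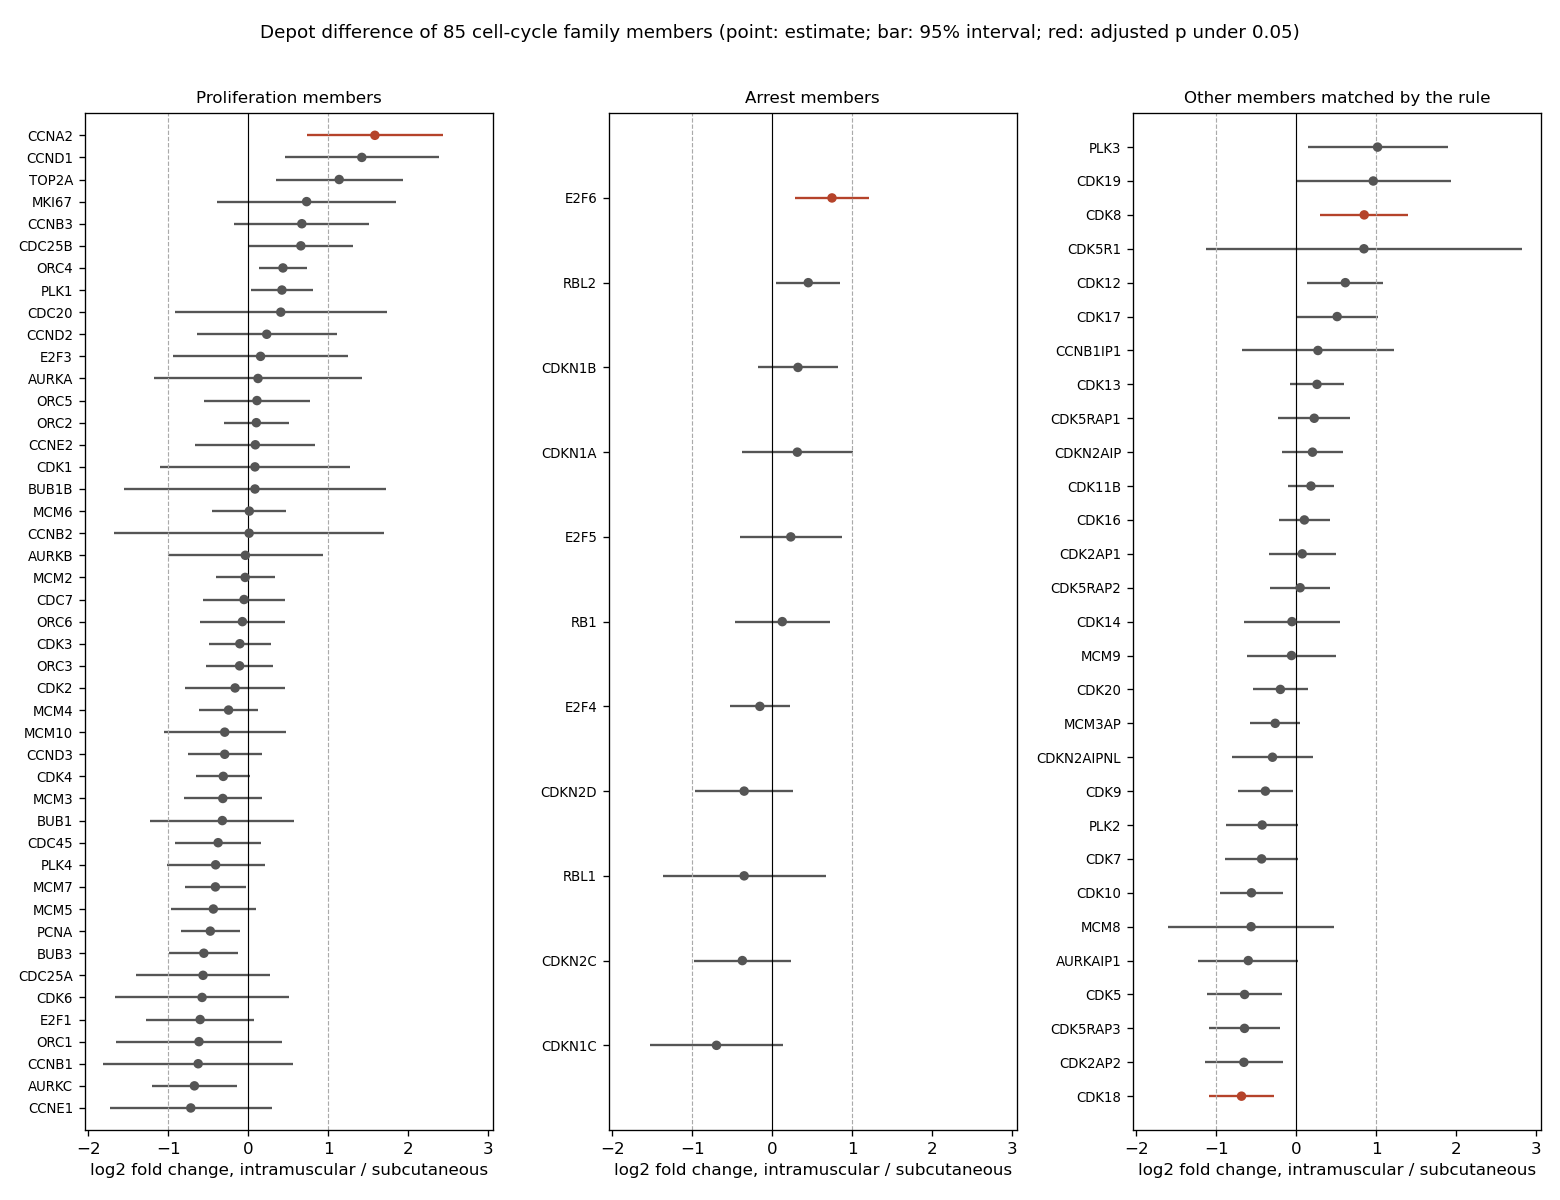
Log2 fold change of each tested gene of the set (points, intramuscular over subcutaneous fat) with its 95% interval (lines), ordered by size within the proliferation, arrest and other genes. CCNA2, E2F6 and CDK8 lie above 0 and CDK18 below it past the threshold, and most of the other intervals cross 0.

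The libraries held 9392739 to 14836808 counts in intramuscular fat and 13776094 to 17685678 in subcutaneous fat, with the shallowest being intramuscular replicate 1. All 10 adipocyte markers had values, and their sum was 5123 to 17308 CPM in intramuscular and 19455 to 27565 CPM in subcutaneous fat. Of the 10, 9 had a log2 fold change below 0, and only FABP4 was called lower (10%, beside 5.47% of all genes). ADIPOQ went the other way, at 743 ± 322 against 649 ± 295 CPM (SD, n = 5 each). Of 18 striated muscle markers 7 had values, with all 7 called higher and a sum of 968, 368, 504, 177 and 250 CPM in intramuscular replicates 1 to 5 against 0 to 0.352 CPM in subcutaneous fat. Each of these 7, NMRK2, SYNPO2L, LRRC30, CACNG6, ANO5, GADL1 and CACNA2D2, was at 0 in subcutaneous replicates 1, 3 and 5. Marker sums of other cells that can divide were 1623 to 2570 against 2293 to 4443 CPM for fibro-adipogenic progenitors (9 genes), 1780 to 2287 against 2242 to 4135 CPM for endothelial cells (9 genes), 173 to 345 against 173 to 901 CPM for macrophages (8 genes), 19.8 to 36.6 against 15.6 to 29.6 CPM for lymphocytes (7 genes) and 18.5 to 86.8 against 5.46 to 39.7 CPM for satellite cells and myoblasts (3 of 7 genes). The part of these cell types in the results was not tested. Intramuscular replicates 2, 4 and 5 alone still held 368, 177 and 250 CPM of the striated muscle markers. Leaving out replicates 1 and 3 therefore cannot separate muscle content from depot, whether a call is kept or lost. In whole tissue, fewer cells of a type and less of an RNA per cell cannot be told apart.

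CCND1 encodes cyclin D1, which couples growth signals to CDK4 and CDK6. It stood at 23.8, 16.7, 17.2, 20.1 and 19.6 CPM in intramuscular replicates 1 to 5 and at 11, 9.90, 1.80, 11.1 and 2.52 CPM in subcutaneous replicates 1 to 5. The depots did not overlap, and the subcutaneous libraries fell into low values in replicates 3 and 5 and values near 10 in the others, giving a coefficient of variation of 64.5% against 14.5% in intramuscular fat. The log2 fold change was 1.42 ± 0.44 (SE, 95% interval 0.46 to 2.38, n = 5 per depot) and missed the threshold in edgeR's quasi-likelihood test (adjusted p = 0.0534). With the replicate number as a block it passed, at a log2 fold change of 1.72 and an adjusted p of 0.0281. CCND1 lies on chromosome 29 from 46888863 to 46898541 in the coordinates of the deposited table, and all of its 9679 bases overlap LTO1 on the opposite strand. LTO1 stood at 6.00 ± 1.86 CPM in intramuscular and 10.8 ± 2.36 CPM in subcutaneous fat (SD, n = 5 each), in the opposite order to CCND1.

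The other D-type cyclins and their kinases gave no call in edgeR, DESeq2 or limma voom. CCND1, which DESeq2 and limma voom called, was the only one of the 5 with an unadjusted p under 0.05 (20%, beside 30.7% of all genes). CCND3, which encodes cyclin D3, had 61.9 ± 18.5 CPM in intramuscular and 75.8 ± 17.7 CPM in subcutaneous fat (SD, n = 5 each). Per length it was the most abundant of the 3 D-type cyclins, at a mean of 34.7 RPKM (CPM per kilobase of the table's gene length) over the 10 libraries, beside 9.52 for CCND1 and 2.02 for CCND2. CCND2 differed by 0.23 ± 0.40 on the log2 scale (SE). CDK4 had 46.2 ± 7.11 and 57.3 ± 8.70 CPM (SD), a log2 difference of -0.31 ± 0.16 (SE, adjusted p = 0.2, edgeR). CDK6, its close relative, was scarcer per length, with 1.93 RPKM beside 26.2 RPKM for CDK4, and its 5 counts in intramuscular replicate 1 stood against 37 to 62 counts in the other intramuscular libraries.

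CCNA2 was the gene of smallest p in the set. It stood at 4.87, 3.60, 5.34, 2.51 and 2.77 CPM in intramuscular replicates 1 to 5 and at 1.16, 1.47, 1.74, 0.999 and 0.953 CPM in subcutaneous replicates 1 to 5. Each intramuscular library lay above each subcutaneous one, and intramuscular replicates 1 and 3, the libraries with the largest striated muscle sums, were the highest. The values rest on 37 to 73 counts per intramuscular and 14 to 28 per subcutaneous library. The means were 3.82 ± 1.25 and 1.26 ± 0.333 CPM (SD, n = 5 each), and the log2 fold change was 1.59 ± 0.40 (SE, 95% interval 0.73 to 2.44, edgeR adjusted p = 0.0224). Within each pair of libraries with the same number the difference had the same sign, from 1.22 to 1.95 on the log2 scale. Without intramuscular replicate 1 or 3 the call was lost (adjusted p = 0.0548 and 0.074), and without both the log2 fold change was 1.22 (adjusted p = 0.198). Leaving out the highest intramuscular libraries lowers the fold change in any case, and the fit without both called 2.93% of all genes. CCNA2 lies on chromosome 6 from 3425574 to 3431686.

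The partners of cyclin A and the mitotic cyclins did not follow it past the threshold. CDK1, the kinase of mitosis, had 0.966 ± 0.482 CPM in intramuscular and 0.913 ± 0.343 CPM in subcutaneous fat (SD), from 5 to 24 counts per library. CDK2 had 11.6 ± 2.30 and 13 ± 5.49 CPM. CCNB1 had 1.88 ± 1.35 and 2.91 ± 1.2 CPM, and CCNB2 1.10 ± 0.604 and 1.10 ± 0.928 CPM, both encoding B-type cyclins. At these levels the intervals were wide, and for CCNB2 the log2 difference could lie anywhere from -1.67 to 1.70. The E-type cyclins bind CDK2 at the start of S phase, and CCNE1 had 4.91 ± 2.93 and 8.02 ± 4.41 CPM (log2 difference -0.72 ± 0.47, SE), while CCNE2 had 11.9 ± 4.81 and 11.2 ± 4.39 CPM. CDK3, the most abundant of these genes per length at 16.1 RPKM, shares 8392 bases with TEN1 on the same strand, so its level is uncertain. Summed over the 11 genes of this role, the level was 82.8 to 95.8 CPM in intramuscular and 77.5 to 96.4 CPM in subcutaneous fat, with the depots overlapping.

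**Figure D2:**
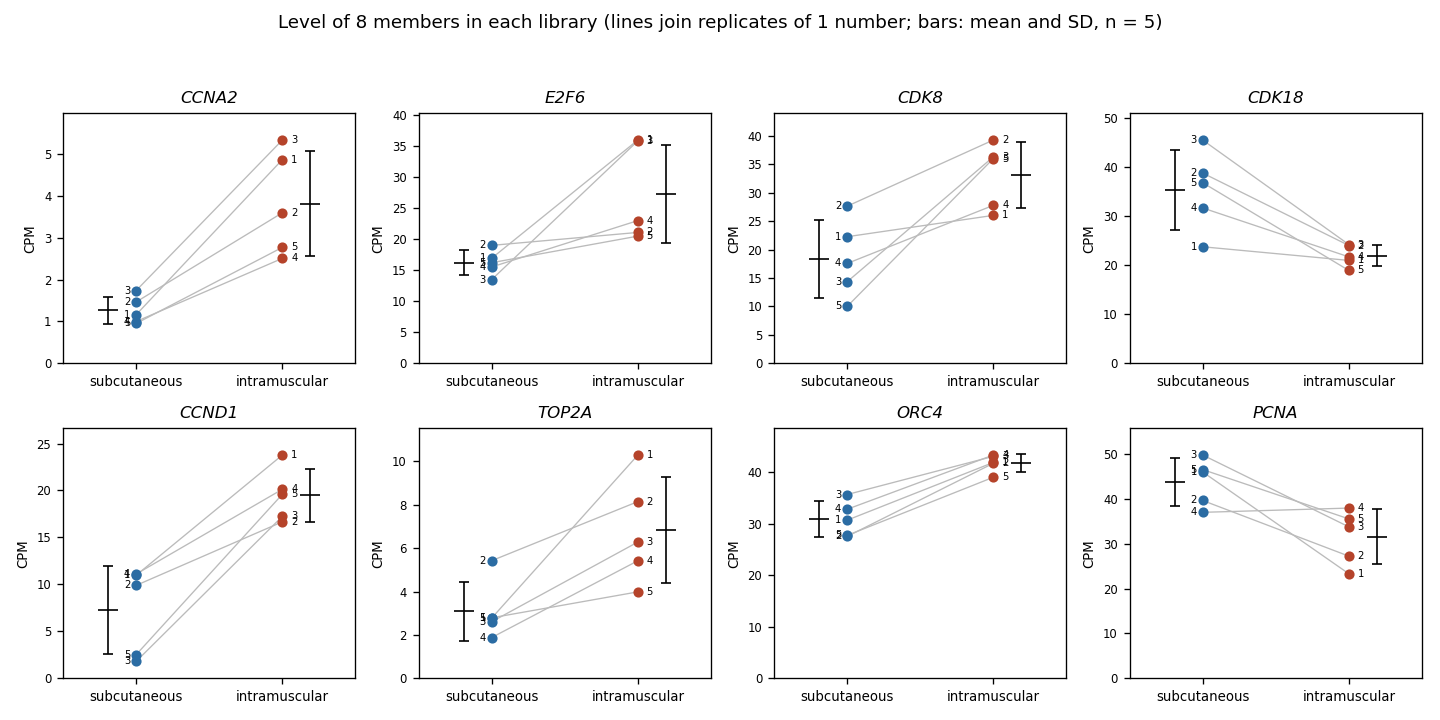
Normalised counts (CPM) of CCNA2, E2F6, CDK8, CDK18, CCND1, TOP2A, ORC4 and PCNA in each of the 10 libraries, with the mean and SD per depot (n = 5) and lines that join libraries of the same replicate number. For CCNA2, whose means are 3.82 and 1.26 CPM, each intramuscular point lies above each subcutaneous point.

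Of the roles, the origin licensing and firing genes had the largest share of narrow intervals. None of the 16 tested was called in the reported edgeR test or limma voom, and DESeq2 called ORC4 higher (5.88%, beside 10.8% of all genes). ORC4 was also called higher in edgeR with unscaled library totals (adjusted p = 0.0214) and with DESeq2's size factors (adjusted p = 0.0498). In edgeR 3 of the 16 (18.8%) had an unadjusted p under 0.05, beside 30.7% of all genes. The log2 fold changes ran from -0.61 to 0.44 with a median of -0.17, and 12 of the 16 were below 0. For 14 of the 16 (87.5%) the 95% interval lay within 2-fold, beside 51.4% of all genes. The 6 subunits of the MCM2 to MCM7 helicase were each measured at 10 CPM or more in every library, apart from MCM3 at 8.20 CPM in intramuscular replicate 4. MCM2 had 24.9 ± 4.14 CPM in intramuscular and 25.6 ± 3.27 CPM in subcutaneous fat (SD, n = 5 each), and its interval ran from -0.40 to 0.33 on the log2 scale. MCM6 had 21.0 ± 4.03 and 20.7 ± 5.35 CPM. MCM3, MCM4 and MCM5 had log2 differences of -0.32 ± 0.22, -0.24 ± 0.17 and -0.43 ± 0.25 (SE), each with overlapping depots, and MCM5 was lower in intramuscular fat in 5 of 5 pairs.

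MCM7 was the most abundant licensing gene per length, at 31.3 ± 2.83 RPKM in intramuscular and 41.6 ± 9.55 RPKM in subcutaneous fat (SD, n = 5 each). The other 5 helicase subunits lay between 4.29 and 6.96 RPKM over the 10 libraries. MCM7 stood at 87.4, 106, 110, 105 and 110 CPM in intramuscular replicates 1 to 5 and at 134, 161, 165, 85.9 and 142 CPM in subcutaneous replicates 1 to 5. Subcutaneous replicate 4 was the lowest of all 10, and the other subcutaneous libraries were above every intramuscular one. The log2 fold change was -0.41 ± 0.18 (SE, edgeR adjusted p = 0.139). MCM7 overlaps AP4M1 by 380 bases on the opposite strand.

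The origin recognition complex subunits differed in direction. ORC4 stood at 41.9, 41.8, 43.1, 43.4 and 39.1 CPM in intramuscular and at 30.7, 27.6, 35.7, 32.8 and 27.8 CPM in subcutaneous replicates 1 to 5. The depots did not overlap, and the intramuscular coefficient of variation was 4.09%. Its log2 fold change of 0.44 ± 0.14 (SE, 95% interval 0.14 to 0.73) missed the threshold (edgeR adjusted p = 0.0543) and was below 2-fold throughout the interval. ORC1, a subunit made in dividing cells, was scarce, with 1.59 ± 0.574 and 2.45 ± 1.16 CPM (SD) from 8 to 62 counts per library. CDC6, which loads the helicase with the origin recognition complex, had 6 to 9 counts per intramuscular and 7 to 25 per subcutaneous library, and overlaps WIPF2 on the same strand, so its counts may be shared.

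PCNA encodes the sliding clamp of the replication fork. It stood at 23.3, 27.2, 33.8, 38.0 and 35.5 CPM in intramuscular and 46.0, 39.7, 49.8, 37.0 and 46.5 CPM in subcutaneous replicates 1 to 5. Only intramuscular replicate 4 and subcutaneous replicate 4 crossed, and the log2 fold change was -0.47 ± 0.17 (SE, edgeR adjusted p = 0.0846). The sum over the 17 licensing and firing genes was 355 to 389 CPM in intramuscular and 356 to 480 CPM in subcutaneous fat, with 4 of the 5 subcutaneous libraries above every intramuscular one. With library totals left unscaled, the summed proliferation genes had a ratio of depot means of 0.999 in place of 0.886, and the median of all genes moved by 0.17 on the log2 scale.

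**Figure D3:**
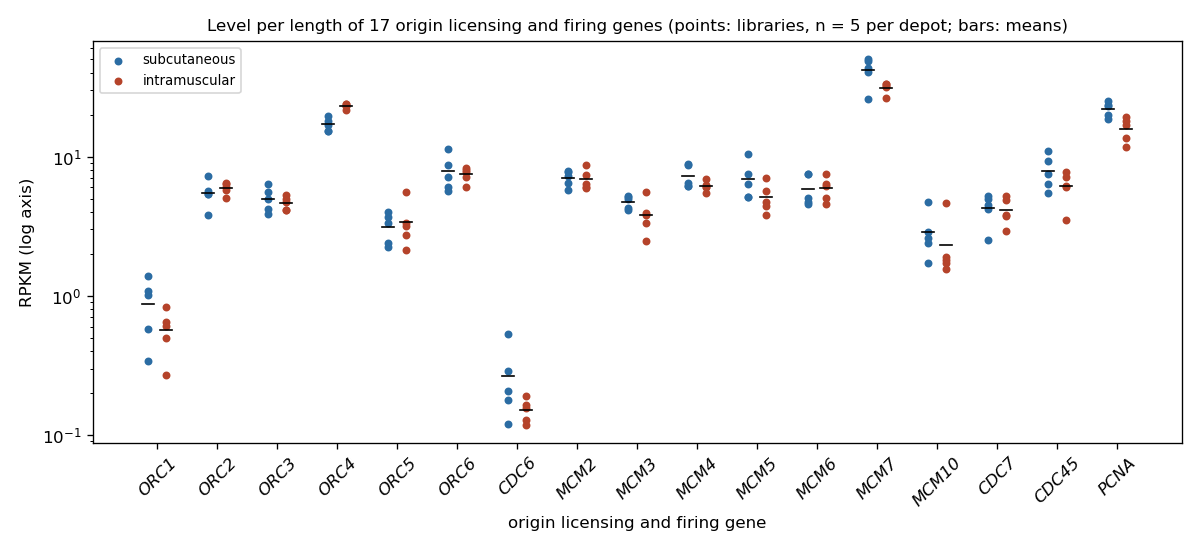
Level per length (RPKM) of the licensing and firing genes by depot (points for the 5 libraries, bars for their mean, log axis). MCM7, at 31.3 and 41.6 RPKM, stands above the other MCM genes, and CDC6, at 0.152 and 0.265 RPKM, is the lowest.

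Of the activator E2F genes, E2F1 had 2.95 ± 0.701 CPM in intramuscular and 4.47 ± 0.802 CPM in subcutaneous fat (SD), a log2 difference of -0.60 ± 0.31 (SE, edgeR adjusted p = 0.212), and E2F3 had 6.17 ± 1.59 and 5.53 ± 3.41 CPM. The mitotic kinases, checkpoint and chromosome genes gave no call among 11 in the reported edgeR test or limma voom. DESeq2 called TOP2A higher (9.09% of the 11, beside 10.8% of all genes). In edgeR 4 of the 11 (36.4%) had an unadjusted p under 0.05, beside 30.7% of all genes. Their log2 fold changes ran from -0.67 to 1.14. TOP2A, the topoisomerase that untangles chromosomes and a common mark of dividing cells, stood at 10.3, 8.15, 6.29, 5.42 and 3.99 CPM in intramuscular and at 2.78, 5.42, 2.61, 1.88 and 2.79 CPM in subcutaneous replicates 1 to 5. The depots overlapped through subcutaneous replicate 2, which was level with intramuscular replicate 4 and above replicate 5. Its log2 fold change was 1.14 ± 0.37 (SE, 95% interval 0.35 to 1.93, edgeR adjusted p = 0.0586), and it passed with the replicate block (adjusted p = 0.0496).

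MKI67, the gene of the Ki-67 antigen that marks cycling cells, stood at 10.4, 9.76, 6.36, 3.12 and 3.58 CPM in intramuscular and at 3.23, 4.69, 0.931, 2.88 and 8.23 CPM in subcutaneous replicates 1 to 5. Intramuscular replicates 1 and 2 and subcutaneous replicate 5 were high, so that the depots overlapped widely. Its log2 difference was 0.73 ± 0.52 (SE, 95% interval -0.39 to 1.85, edgeR adjusted p = 0.357). BUB3, a spindle checkpoint protein that is also present outside mitosis, had 44.0 ± 10.9 and 64.6 ± 12.3 CPM (SD) and was lower in 5 of 5 pairs, with a log2 fold change of -0.55 ± 0.20 (SE, edgeR adjusted p = 0.0839). It passed with the replicate block (adjusted p = 0.0225). AURKC, an Aurora kinase best known from germ cells, did likewise, with 15 ± 4.45 and 23.9 ± 6.56 CPM (SD) and adjusted p values of 0.0885 without and 0.0454 with the block. PLK1, a kinase of mitotic entry, had 19.5 ± 2.62 and 14.6 ± 2.01 CPM (SD, edgeR adjusted p = 0.13).

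Among 11 marks of cycling cells picked after their values were seen (MKI67, TOP2A, CCNA2, CCNB1, CCNB2, CDK1, BUB1, BUB1B, AURKA, AURKB and CDC20), the sum was 41.6, 33.4, 31.4, 26.8 and 25.7 CPM in intramuscular and 20.2, 29.4, 19.1, 18.9 and 29.6 CPM in subcutaneous replicates 1 to 5. Subcutaneous replicates 2 and 5 lay within the intramuscular range. The marks leave out, among other mitotic genes, BUB3 and AURKC, which were lower in intramuscular fat, and PLK1, which was higher. All 11 genes of the mitotic role summed to 94 to 119 CPM in intramuscular and 117 to 134 CPM in subcutaneous fat. The means of that role were 108 ± 9.83 and 128 ± 6.26 CPM (SD, n = 5 each). For the picked marks they were 31.8 ± 6.33 and 23.4 ± 5.57 CPM, in the opposite order.

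Of the arrest genes, the CDK inhibitors gave no call among 5 in edgeR, DESeq2 or limma voom. In edgeR 0 of them had an unadjusted p under 0.05, beside 30.7% of all genes. CDKN1C, which encodes p57 and is the most abundant gene of the set per length, had 398 ± 132 RPKM in intramuscular and 645 ± 301 RPKM in subcutaneous fat (SD, n = 5 each). In CPM it stood at 340, 823, 770, 761 and 1011 in intramuscular and at 1466, 1257, 1090.4, 336 and 1852 in subcutaneous replicates 1 to 5. Intramuscular replicate 1 and subcutaneous replicate 4 were both far below the rest of their depots. The log2 fold change was -0.70 ± 0.39 (SE, 95% interval -1.53 to 0.14, edgeR adjusted p = 0.24), with 4 of 5 pairs lower and the pair of replicate 4 higher.

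CDKN1A, which encodes p21, an inhibitor induced by p53, stood at 107, 216, 289, 402 and 413 CPM in intramuscular and at 198, 152, 223, 269 and 304 CPM in subcutaneous replicates 1 to 5. The intramuscular libraries held both the lowest and the highest value, and the log2 difference was 0.32 ± 0.32 (SE, edgeR adjusted p = 0.534). CDKN1B, which encodes p27, had 76.3 ± 11.3 and 61.0 ± 21.9 CPM (SD). CDKN2C, which encodes p18, had 37.1 ± 10.1 and 48.0 ± 19.6 CPM and was lower in 5 of 5 pairs, at a log2 difference of -0.37 ± 0.28 (SE, edgeR adjusted p = 0.391). CDKN2D, which encodes p19, had 8.70 ± 3.88 and 11.1 ± 1.54 CPM (SD). The 5 inhibitors summed to 572, 1171, 1169, 1282 and 1546 CPM in intramuscular and to 1812, 1525, 1423, 703 and 2285 CPM in subcutaneous fat, and the lowest library of each depot was the one lowest in CDKN1C. CDKN3, a phosphatase made by cycling cells and kept apart from the arrest genes, had 0.135 to 1.68 CPM and was not tested.

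**Figure D4:**
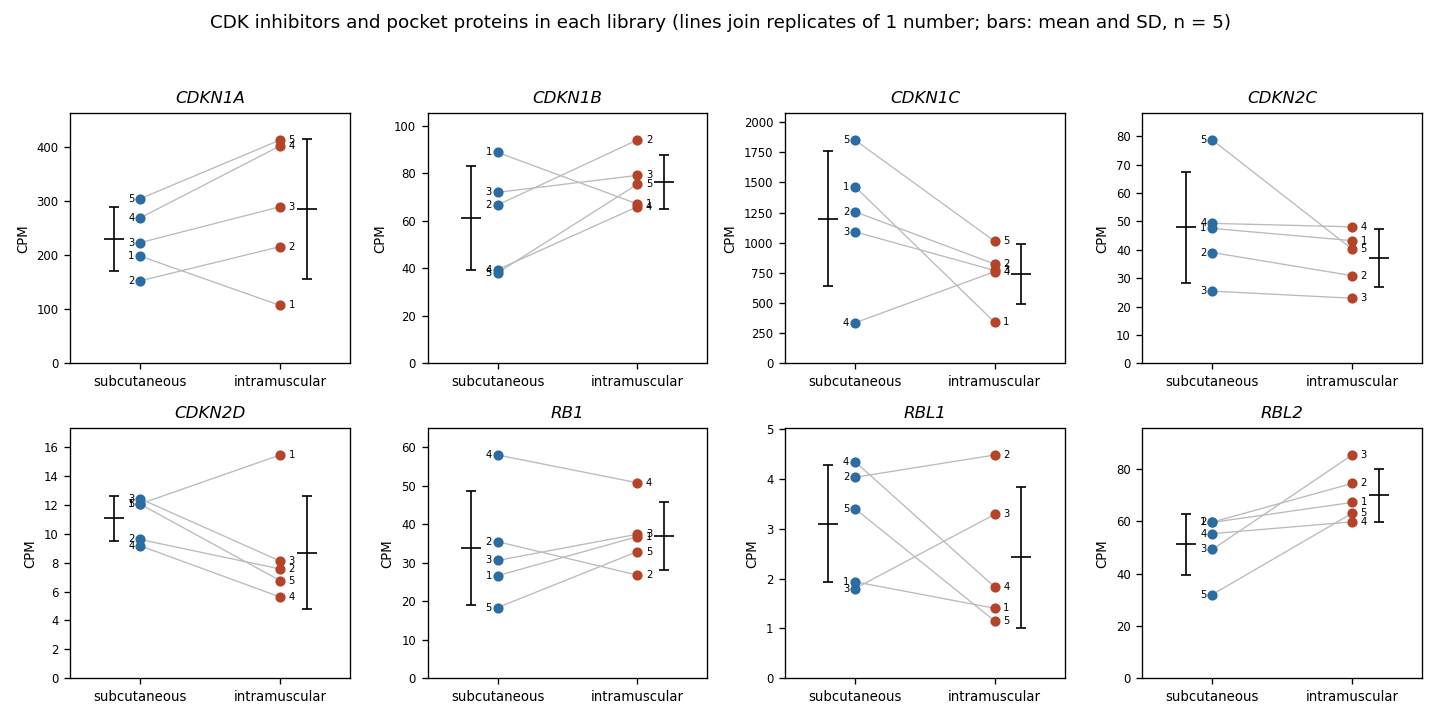
Normalised counts (CPM) of CDK inhibitors and pocket protein genes in each of the 10 libraries, with the mean and SD per depot (n = 5) and lines joining libraries of the same replicate number. CDKN1C shows 1 low library in each depot, at 340 and 336 CPM, and for RBL2 the depots do not overlap.

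E2F6, an E2F that represses its targets without pocket proteins, was the called arrest gene. It stood at 35.9, 21.1, 35.8, 23.0 and 20.5 CPM in intramuscular and at 16.9, 19, 13.5, 15.5 and 16.2 CPM in subcutaneous replicates 1 to 5. The depots did not overlap, and intramuscular replicates 1 and 3, with the largest striated muscle sums, stood apart above the other 3, which exceeded the highest subcutaneous library by little. The log2 fold change was 0.75 ± 0.21 (SE, 95% interval 0.29 to 1.21, edgeR adjusted p = 0.0381). Leaving out intramuscular replicates 1 and 3, the highest libraries, lowers the fold change in any case. Without both the log2 fold change was 0.41 (adjusted p = 0.294), in a fit that called 2.93% of all genes. The call was also lost without either of them alone and without subcutaneous replicate 3, 4 or 5 (adjusted p of up to 0.113). E2F6 lies on chromosome 11 from 86379649 to 86401981.

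The pocket proteins hold E2F factors in check in resting cells. RBL2, which encodes p130, the pocket protein of quiescent cells, stood at 67.1, 74.4, 85.2, 59.7 and 63.0 CPM in intramuscular and at 59.5, 59.6, 49.2, 55.2 and 32.0 CPM in subcutaneous replicates 1 to 5. The depots did not overlap but nearly met at intramuscular replicate 4 and subcutaneous replicate 2. The log2 fold change was 0.45 ± 0.19 (SE, edgeR adjusted p = 0.121). RB1 had 36.9 ± 8.81 and 33.8 ± 14.9 CPM (SD), and overlaps LPAR6 by 1850 bases on the opposite strand. RBL1, which encodes p107 and is made mostly in cycling cells, had 2.43 ± 1.41 and 3.10 ± 1.18 CPM. E2F4, the repressor E2F that partners the pocket proteins, had 51.1 ± 5.81 and 56.8 ± 13.4 CPM and was the most abundant of this role per length, at 26.5 RPKM.

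The CDKs of transcription and of non-dividing cells held the 2 remaining calls (14.3% of 14 tested, beside 12.2% of all genes). CDK8 stood at 26, 39.3, 36.3, 27.8 and 36.0 CPM in intramuscular and at 22.3, 27.6, 14.3, 17.6 and 10.0 CPM in subcutaneous replicates 1 to 5. The depots crossed where subcutaneous replicate 2 exceeded intramuscular replicate 1, and CDK8 was higher in 5 of 5 pairs. The means were 33.1 ± 5.82 and 18.4 ± 6.85 CPM (SD, n = 5 each), and the log2 fold change was 0.85 ± 0.25 (SE, edgeR adjusted p = 0.0464). CDK8 lost the call in 8 of the 10 fits that left out 1 library, namely each intramuscular library and subcutaneous replicates 3, 4 and 5, with an adjusted p of up to 0.103 and log2 fold changes of 0.69 to 1.04 over the 10 fits. CDK19, its paralog in the Mediator complex, had 2.59 ± 0.181 and 1.32 ± 0.678 CPM (SD), with no overlap and a log2 difference of 0.96 ± 0.45 (SE, edgeR adjusted p = 0.165).

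CDK18 stood at 21.0, 24.0, 24.2, 21.7 and 18.9 CPM in intramuscular and at 23.7, 38.8, 45.5, 31.7 and 36.8 CPM in subcutaneous replicates 1 to 5. Subcutaneous replicate 1 lay within the intramuscular range and the other 4 lay above it, with all 5 pairs lower in intramuscular fat. The log2 fold change was -0.68 ± 0.19 (SE, 95% interval -1.09 to -0.28, edgeR adjusted p = 0.032). With unscaled library totals the adjusted p was 0.0965, and the call held in 3 of the 10 fits that left out 1 library, those without subcutaneous replicate 1, 4 or 5, with an adjusted p of up to 0.0781 in the others.

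Without both intramuscular replicates 1 and 3, CDK8 had a log2 fold change of 0.91 (adjusted p = 0.138) and CDK18 of -0.71 (adjusted p = 0.14), each at least as large in size as with all libraries. None of the set was called then, beside 2.93% of all genes in the same edgeR fit (2.39% higher and 0.531% lower). CDK9, the kinase of transcription elongation and the most abundant of this role per length at 81.7 RPKM, had 143 ± 7.65 and 186 ± 39.8 CPM (SD), with 5 of 5 pairs lower (edgeR adjusted p = 0.124). Of the 14 genes of this role, 7 (50%) had an unadjusted p under 0.05, beside 30.7% of all genes. DESeq2 called 2 of the 14 higher (14.3%, beside 10.8% of all genes) and 3 lower (21.4%, beside 9.24%).

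The stress kinases of the polo family gave no call among 2 in edgeR, DESeq2 or limma voom, with 1 at an unadjusted p under 0.05. PLK2 had 108 ± 24.3 and 145 ± 37.1 CPM (SD), and PLK3 28.9 ± 14.4 and 14.3 ± 6.53 CPM, with a log2 difference of 1.02 ± 0.40 (SE, edgeR adjusted p = 0.112). The 13 genes that share a name with these families gave none in the reported edgeR test or limma voom. DESeq2 called 2 lower, CDK2AP2 and CDK5RAP3 (15.4%, beside 9.24% of all genes). These were also the 2 with an unadjusted p under 0.05 in edgeR (15.4%, beside 30.7% of all genes). CDK5RAP3 had 51.6 ± 8.73 and 80.8 ± 23.0 CPM (SD) and was lower in 5 of 5 pairs (edgeR adjusted p = 0.0553). CDK2AP2 had 75.8 ± 20.8 and 119 ± 32.4 CPM (SD), with an adjusted p of 0.0716 in edgeR without and 0.0374 with the replicate block. With the block, edgeR called 4 genes of the set higher (CCNA2, CCND1, CDK8 and TOP2A) and 4 lower (AURKC, BUB3, CDK18 and CDK2AP2), beside 15.1% of all genes (8.13% higher and 6.95% lower). Limma voom called CCNA2, CCND1 and CDK8 higher and CDK18 lower, beside 12.1% of all genes (7.37% higher and 4.74% lower).

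In the authors' deposited table, 7 genes of the set had an adjusted p under 0.05 and a higher level in intramuscular fat, and 5 a lower one. DESeq2 run here gave the same numbers, with CCNA2, CCND1, CDK12, CDK8, E2F6, ORC4 and TOP2A higher and CDK10, CDK18, CDK2AP2, CDK5 and CDK5RAP3 lower, beside 20.0% of all genes called (10.8% higher and 9.24% lower).

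Other genes of the cell cycle were read from lists made by function, with earlier results of these data known. Over all 152 tested, 4 were higher and 5 lower (5.92%), beside 12.2% of all genes. Of 40 enzymes and fork proteins of S phase none was called higher and 3 were lower (7.5%, beside 5.47% of all genes), with a median log2 fold change of -0.36 against -0.04 over all genes. These 3 were CHAF1A, a chromatin assembly factor, at 23.8 ± 8.81 against 88.1 ± 45.6 CPM (SD, n = 5 each), TK1, thymidine kinase, at 12 ± 1.46 against 22.5 ± 7.48 CPM, and RFC3, a clamp loader subunit, at 20.4 ± 7.17 against 45.3 ± 17.1 CPM. TK1 did not overlap between depots, while CHAF1A and RFC3 did, through subcutaneous replicate 1. The S phase genes called lower were 7 with the replicate block (17.5%, beside 6.95% of all genes), 9 in DESeq2 (22.5%, beside 9.24%) and 4 in limma voom (10%, beside 4.74%). Without both intramuscular replicates 1 and 3 none was called, with log2 fold changes of -1.72 for CHAF1A, -0.93 for TK1 and -0.92 for RFC3 (adjusted p = 0.101, 0.128 and 0.192).

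Of 43 genes of G2 and mitosis 1 was higher and 2 lower, which is 6.98% beside 12.2% of all genes. KIF4A, a chromosome kinesin, was higher at 17, 3.45, 8.77, 4.07 and 3.11 CPM in intramuscular replicates 1 to 5 against 0.680 to 1.76 CPM in subcutaneous fat (log2 fold change 2.55 ± 0.54, SE, edgeR adjusted p = 0.0109). Replicates 1 and 3 were the highest, as for CCNA2 and E2F6, so leaving them out lowers the fold change in any case. Without both the log2 fold change was 1.52 (adjusted p = 0.137). GTSE1, a G2 and S phase protein, fell to 7.71 ± 1.44 against 19.4 ± 7.53 CPM (SD), and PKMYT1, a kinase that inhibits CDK1, to 11.2 ± 3.83 against 21.5 ± 4.06 CPM. Without both replicates neither was called (adjusted p = 0.0959 and 0.13). None of the 8 DREAM complex genes and E2F partners was called in the reported edgeR test or limma voom. With the replicate block edgeR called 1 of them higher (12.5%, beside 8.13% of all genes). With unscaled library totals edgeR called 2 higher (25%, beside 11.8% of all genes called in either direction). DESeq2 also called 2 higher (25%, beside 10.8% of all genes). In edgeR 2 of the 8 (25%) had an unadjusted p under 0.05, beside 30.7% of all genes.

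Of 23 p53 targets and quiescence factors only TOB1, an antiproliferative protein, was called in the depot-only edgeR fit, and it was higher. It stood at 303, 131, 146, 58.2 and 96.6 CPM in intramuscular replicates 1 to 5 against 18.7 to 32.5 CPM in subcutaneous fat (log2 fold change 2.43 ± 0.36, SE, edgeR adjusted p = 0.00133). DESeq2 called 4 of the 23 higher (17.4%, beside 10.8% of all genes). The replicate block called 2 higher and 2 lower (8.7% each, beside 8.13% and 6.95% of all genes). The order of TOB1 over the intramuscular libraries was that of the striated muscle sum, highest in replicate 1 and lowest in replicate 4. The adipocyte sum ran nearly in reverse, at 5123, 12871, 11374, 16033 and 17308 CPM in intramuscular replicates 1 to 5. The part of muscle or of adipocyte content in this order was not tested. Without both replicates 1 and 3 TOB1 was still called, at a log2 fold change of 1.81 (adjusted p = 0.0042). The intramuscular libraries left in that fit still held the muscle markers, so it does not test muscle content. Of 17 other cyclins only CCNG1, a p53-responsive cyclin, was called in the depot-only edgeR fit. It had 917, 532, 714, 456 and 469 CPM in intramuscular against 188 to 292 CPM in subcutaneous fat (log2 fold change 1.39 ± 0.23, SE, edgeR adjusted p = 0.0024). DESeq2 called 3 of the 17 higher (17.6%, beside 10.8% of all genes) and the replicate block 2 (11.8%, beside 8.13%). The order of CCNG1 was again that of the muscle sum and nearly the reverse of the adipocyte sum. Without replicates 1 and 3 CCNG1 was still called, at a log2 fold change of 1.05 (adjusted p = 0.0137). Of 21 genes of cyclin and inhibitor turnover only FBXW7, which directs cyclin E to degradation, was called in the depot-only edgeR fit. It was higher, with 15.6 ± 1.51 against 8.20 ± 2.73 CPM (SD). DESeq2 called 2 of the 21 higher (9.52%, beside 10.8% of all genes) and 1 lower (4.76%, beside 9.24%). FBXW7 was not called without both replicates (log2 fold change 0.89, adjusted p = 0.166).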

How the data were processed

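RNA-seq of 5 intramuscular and 5 subcutaneous fat samples was used, with depot and replicate number from the sample titles. Per the labels' protocols, libraries were made from total RNA with random primers and a dUTP second strand. The submitters' processing notes name DESeq2 1.42.0, featureCounts 2.0.2, STAR 2.7.11a and Trimmomatic 0.39. Build and strand setting are not given in the sources used, so coordinates are those of the deposited table, and for 13 genes of the set that overlap another listed gene (11 on the opposite strand) reads may be shared.

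The authors deposited raw counts per gene and library for 12674 genes, with their own mean of counts per depot and a base mean, which is a signal scaled by size factors, a log2 fold change, a p-value and an adjusted p-value. Whole-number totals of these counts are totals of listed genes. CPM, with scaled library sizes, and RPKM, with the table's gene length, were computed from the counts.

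The test was edgeR 4.0.16's robust quasi-likelihood test (R 4.3.3, TMM scaling, filterByExpr, depot only, two-sided), with Benjamini-Hochberg adjustment at 0.05 over the 12521 genes kept; 153 were removed. It was tested on simulated counts. Intervals are 95% and rest on 5 libraries per depot. Alternatives were the replicate number as a block, unscaled totals, DESeq2's size factors, no filter, a mean of at least 1 CPM, DESeq2 1.42.0, limma voom 3.58.1, and leaving out each library or both intramuscular replicates 1 and 3. Replicate numbers were taken as pairs, since the design text names 5 heifers for both depots and same-numbered libraries deviated together (correlations across genes of 0.102, 0.181, 0.176, 0.161 and 0.237). The labels tie no number to an animal. The depot-only test leaves the pairing out, and the fit with the replicate block uses it. The p-values set the depot difference against the spread between these samples.

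Members and lists were chosen with earlier results of these data known. Genes named with values were those called, the member of smallest p and of highest RPKM in each role, a fixed list of core cell cycle genes, and called genes of the context lists. AURKC, PLK1, CDK19, the marks of cycling cells outside these, and genes named only as calls of an alternative were chosen after their values were seen. Promoter sequences were not analysed here.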

Additional observations from a re-analysis of the deposited data

Results flagged for a closer look

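Of 96 groups of 5 libraries checked for a library far from the other 4 (Dixon's ratio above 0.71 on log2 CPM), 6 had one, and chance alone gives about 1 in 20 groups. All 6 were in intramuscular fat. CDKN1C in replicate 1 was at 339.5 CPM against 761 to 1011 in the others. CDK6 in replicate 1 was at 0.468 CPM against 2.72 to 4.19. MCM7 in replicate 1 was at 87.4 CPM against 105 to 110. CCNB2 in replicate 3 was at 0.146 CPM against 0.936 to 1.69. CCND3 in replicate 5 was at 94.5 CPM against 49.9 to 56.9, and CDK4 in replicate 4 at 58.6 CPM against 40.9 to 45.3. Replicate 1, which holds 3 of the 6, is the shallowest library and the one with the largest striated muscle sum, and the part of either was not tested.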

How the results depend on the processing

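The calls depended on the setting. Genes of the set called higher were 3 in the reported test, 5 with unscaled library totals, 7 with DESeq2, 0 without both intramuscular replicates 1 and 3, and 0 to 4 with 1 library left out. Those called lower were 1, and 4 with the replicate block, 0 unscaled, 5 with DESeq2, 0 without both replicates, and 0 to 5 with 1 library left out. Proliferation genes called higher were 1, and 3 with the block, 2 with DESeq2's size factors, 3 unscaled, 4 with DESeq2, 2 with limma voom, 0 without both replicates, and 0 to 2 with 1 library left out. Those called lower were 0, and 2 with the block and 0 to 1 with 1 library left out. Arrest genes called higher were 1, and 0 with the block, with voom and without both replicates, and 0 to 1 with 1 library left out. The other cell cycle genes called higher were 4, and 7 with the block, 10 unscaled, 12 with DESeq2, and 3 to 7 with 1 library left out. Those called lower were 5, and 12 with the block, 3 unscaled, 13 with DESeq2, 0 without both replicates, and 2 to 9 with 1 library left out. The share of all genes called moved with the settings too, from 12.2% to 15.1% with the block, 11.8% unscaled, 20.0% with DESeq2, 2.93% without both replicates, and 6.02% to 15.1% with 1 library left out. These settings for the other genes were chosen after seeing the data. E2F6 had an adjusted p of 0.0631 with the block and 0.0501 with voom. The block, with replicate numbers as pairs, ended no other call of the set. All 4 calls were lost without intramuscular replicate 1 or 3 alone. CCNA2 held in 8 of 10 fits with 1 library left out (adjusted p 0.0275 to 0.074), E2F6 in 5, CDK18 in 3 and CDK8 in 2. The ratio of the summed proliferation genes was 0.886, and 0.999 unscaled, where 77.6% of all calls were higher in place of 55.2%. With no filter and with a mean of at least 1 CPM, the same 4 genes of the set were called.

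Signs turned only for genes that were not called. Unscaled, the log2 fold changes were 0.15 for AURKB, 0.10 for CDC7, 0.10 for CDK14, 0.079 for CDK3, 0.017 for E2F4, 0.13 for MCM2, 0.079 for MCM9, 0.072 for ORC3 and 0.12 for ORC6. Without both replicates they were -0.58 for BUB1B, 0.16 for CDK14, -0.21 for CDK2AP1, -0.0068 for CDK5RAP1, -0.12 for CDK5RAP2, -0.11 for E2F5, 0.052 for MCM2 and 0.13 for MCM9. With 1 library left out, the ranges that crossed 0 were -0.18 to 0.37 for AURKA, -0.20 to 0.16 for AURKB, -0.31 to 0.52 for BUB1B, -0.29 to 0.51 for CCNB2, -0.11 to 0.27 for CCNE2, -0.19 to 0.053 for CDC7, -0.18 to 0.29 for CDK1, -0.15 to 0.14 for CDK14, -0.32 to 0.10 for CDK2, -0.076 to 0.15 for CDK2AP1, -0.049 to 0.13 for CDK5RAP2, -0.13 to 0.42 for E2F3, -0.14 to 0.018 for MCM2, -0.086 to 0.12 for MCM6, -0.21 to 0.058 for MCM9, -0.0028 to 0.22 for ORC2, -0.14 to 0.24 for ORC5, -0.17 to 0.10 for ORC6 and -0.030 to 0.41 for RB1. The cause was not tested. Depth limits the scarce genes, and 21 tested genes had a mean under 5 CPM.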
